A study of Drosophila melanogaster with 6 samples.

Results

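The structural proteins of the insect cuticle were compared between wing and haltere imaginal discs of Drosophila melanogaster. These discs are larval sheets of epithelium, and at metamorphosis they become the wing and the club-shaped haltere, with which the fly balances in flight. Genes were taken by name from the authors' deposited table of the comparison. All rows whose symbol begins with Cpr and a digit, Lcp, Ccp84, Twdl, Edg, Acp65, Pcp, Cpap or obst- were kept, which gave 23 of 7762 genes. The genes were chosen by symbol, and the only measured value involved was the expression that gave a gene a row after the authors' own filter. The choice of this family was proposed with the values of the table known, so fold changes may have informed it. The fold changes below are therefore a description of these genes, and no test of the list was made. The samples were 3 wing disc and 3 haltere disc libraries from wandering larvae of the third instar, all of the wild-type Canton S strain, with no transgene or treatment named in the labels. The series asks how the homeotic protein Ultrabithorax (Ubx), present in the haltere disc, sets the haltere apart from the wing.

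Cuticle is a layered extracellular matrix of chitin fibres and proteins that epidermal cells secrete on their apical side. Most of its proteins carry the Rebers-Riddiford (RR) consensus, a stretch that binds chitin, and in the fly these are the Cpr, Lcp, Ccp84, Acp65 and Pcp genes together with Edg78E and Edg84A. The Tweedle proteins (Twdl) are a separate family that shapes the larval and pupal body, and the obstructor proteins (obst-) bind chitin through peritrophin-type domains and help to order it. Edg91 encodes a glycine-rich protein and was named as an ecdysone-dependent gene. Pulses of the steroid hormone ecdysone time the secretion of each new cuticle, so individual genes are typically used at particular stages, and the Lcp genes of the cluster described below were named for the cuticle of larvae.

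The authors' deposited table gives each gene a log2 fold change, a mean expression over both tissues in log2 CPM (counts scaled by library size), a p-value and a false discovery rate (FDR), from edgeR. It gives no value for any single library, so values per sample, their spread and the depth were not analysed here. The numerator of the fold change is not stated. Ubx stood at -5.22 with an edgeR FDR of 2.98e-59 in the authors' deposited table, so a positive value is taken to mean more RNA in the wing disc and a negative value more RNA in the haltere disc. Antp, the homeotic gene of the segment that bears the wing, stood at 2.08 with an edgeR FDR of 3.56e-10 in the authors' deposited table. Every direction given for a cuticle gene rests on this reading.

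The RefSeq annotation of Release 6 holds 130 protein-coding genes whose names match the pattern, and 23 of them (17.7%) had values here. By family these were 19 of 96 RR genes, 1 of 25 Tweedle genes, 2 of 8 obstructor genes and Edg91. Among the RR genes, 4 of the 5 Lcp genes outside the Lcp65 group and 15 of the 70 Cpr genes were represented. The 10 Lcp65 genes, the 7 Ccp84 genes, the adult gene Acp65Aa, the pupal gene Pcp, and the ecdysone-dependent genes Edg78E and Edg84A were not analysed here. The authors' filter on low counts is not stated, and the 23 genes are therefore not a sample of the whole family.

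At an authors' FDR under 0.05, 0 of the 23 genes were higher in the wing disc and 3 were higher in the haltere disc (edgeR). The 3 genes were Cpr47Ee, Lcp4 and Lcp1, all of the RR family. They make up 13.0% of the 23, beside 1.34% of all genes in the authors' deposited table. By direction the share over all genes was 0.464% higher in the wing disc and 0.876% higher in the haltere disc. At an unadjusted p-value under 0.05, 3 cuticle genes were positive and 8 negative, 47.8% of the 23 beside 4.32% of all genes (edgeR). Over all genes 1.58% were positive and 2.73% negative at that p-value. The spread of the family was wide. A log2 fold change of at least 1 in size was held by 10 of the 23, or 43.5%, beside 3.5% of all genes, and the median size of the change was 0.93 on the log2 scale for the cuticle genes and 0.16 for all genes. The median log2 fold change of the 23 was -0.55, against 0.00047 over all genes in the authors' deposited table. RNA was measured from whole discs, where fewer cells of a type and less RNA per cell cannot be told apart.

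**Figure D1:**
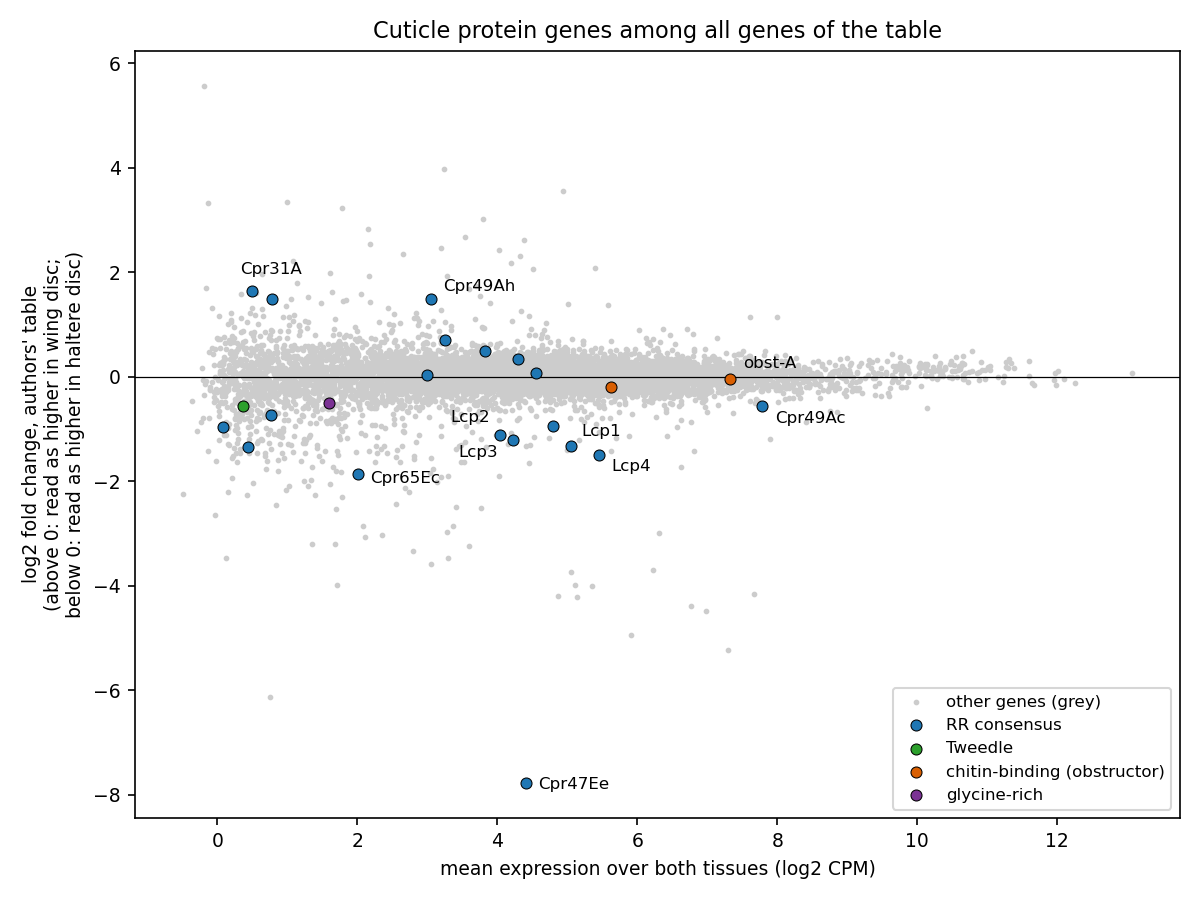
Log2 fold change of each gene in the authors' deposited table (vertical axis, above 0 read as higher in the wing disc) against its mean expression in log2 CPM (horizontal axis), with the 23 cuticle protein genes coloured by family and all other genes in grey. Cpr47Ee lies at -7.77, below every other gene of the table, while obst-A and obst-B lie near 0 at higher expression.

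Cpr47Ee had the lowest log2 fold change and the smallest p-value of all 7762 genes. It stood at -7.77, a 219-fold difference, where mean expression was 4.40 log2 CPM, with an edgeR p-value of 3.04e-72 and FDR of 2.36e-68 in the authors' deposited table. An approximate standard error was obtained by setting each log2 fold change against the normal deviate that corresponds to its p-value, and for Cpr47Ee it was 0.43, with an approximate 95% interval from -8.62 to -6.93. If the mean expression is split between the tissues by the fold change, the implied levels are 0.192 CPM in the wing disc and 42.1 CPM in the haltere disc. The wing level is so low that the size of the fold depends on how edgeR treats small counts, and whether any wing library had a count of 0 is not known. The interval assumes a normal estimate and takes its width from a p-value against 0, so it does not bound this fold.

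Cpr47Ee lies on chromosome arm 2R from 11265126 to 11266856, on the plus strand, in a group of 7 RR genes (Cpr47Ea to Cpr47Eg) that spans 11251751 to 11278445 (dm6, RefSeq Release 6). It was the only gene of the 7 with values here. Its neighbours Cpr47Ef and Cpr47Ed, both on the minus strand, lie 58 bp and 3.32 kb away on either side. Among genes of other families up to 10 kb outside the group, 6 had values in the authors' deposited table. Of these, 5 ranged from -0.04 for fbl6 to 0.35 for CG13220, all with an edgeR FDR of 1. The exception was CG34227, picked after its values were seen, at a log2 fold change of -1.30 with an edgeR FDR of 0.0487 in the authors' deposited table.

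The 4 larval cuticle genes Lcp1 to Lcp4 were all on the haltere side, by 2.15-fold to 2.80-fold. These small RR genes lie together within 8381 bp of arm 2R, from 8430115 to 8438495 (dm6), with Lcp1 and Lcp2 on the minus strand and Lcp3 and Lcp4 on the plus strand. Lcp4 had a log2 fold change of -1.49 with an approximate standard error of 0.31 and an edgeR FDR of 0.000315 in the authors' deposited table. Lcp1 stood at -1.33 with an approximate standard error of 0.35 and an edgeR FDR of 0.0146 in the same authors' deposited table. Lcp3 missed the threshold, at -1.22 with an FDR of 0.0571, and so did Lcp2, at -1.10 with an edgeR FDR of 0.173 (authors' deposited table). Their unadjusted p-values were 0.000779 and 0.00321 (edgeR).

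The approximate 95% intervals of the Lcp genes overlapped widely, from -2.09 to -0.88 for Lcp4 and from -1.84 to -0.37 for Lcp2, so these approximate errors do not separate the calls of Lcp4 and Lcp1 from the values of Lcp3 and Lcp2. Differences among the 4 genes were not tested. The implied levels summed over the 4 genes were 63.5 CPM in the wing disc and 160.2 CPM in the haltere disc. The Lcp genes resemble one another, and a pseudogene, Lcp1Psi, lies between Lcp1 and Lcp2, so reads shared among them may have been dropped or split by the authors' counting. The 3 genes of other families with values within 10 kb, CSN7, Cyp4e2 and Cyp4e1, stood at -0.01, -0.11 and 0.32 in the authors' deposited table, all with an edgeR FDR of 1.

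**Figure D2:**
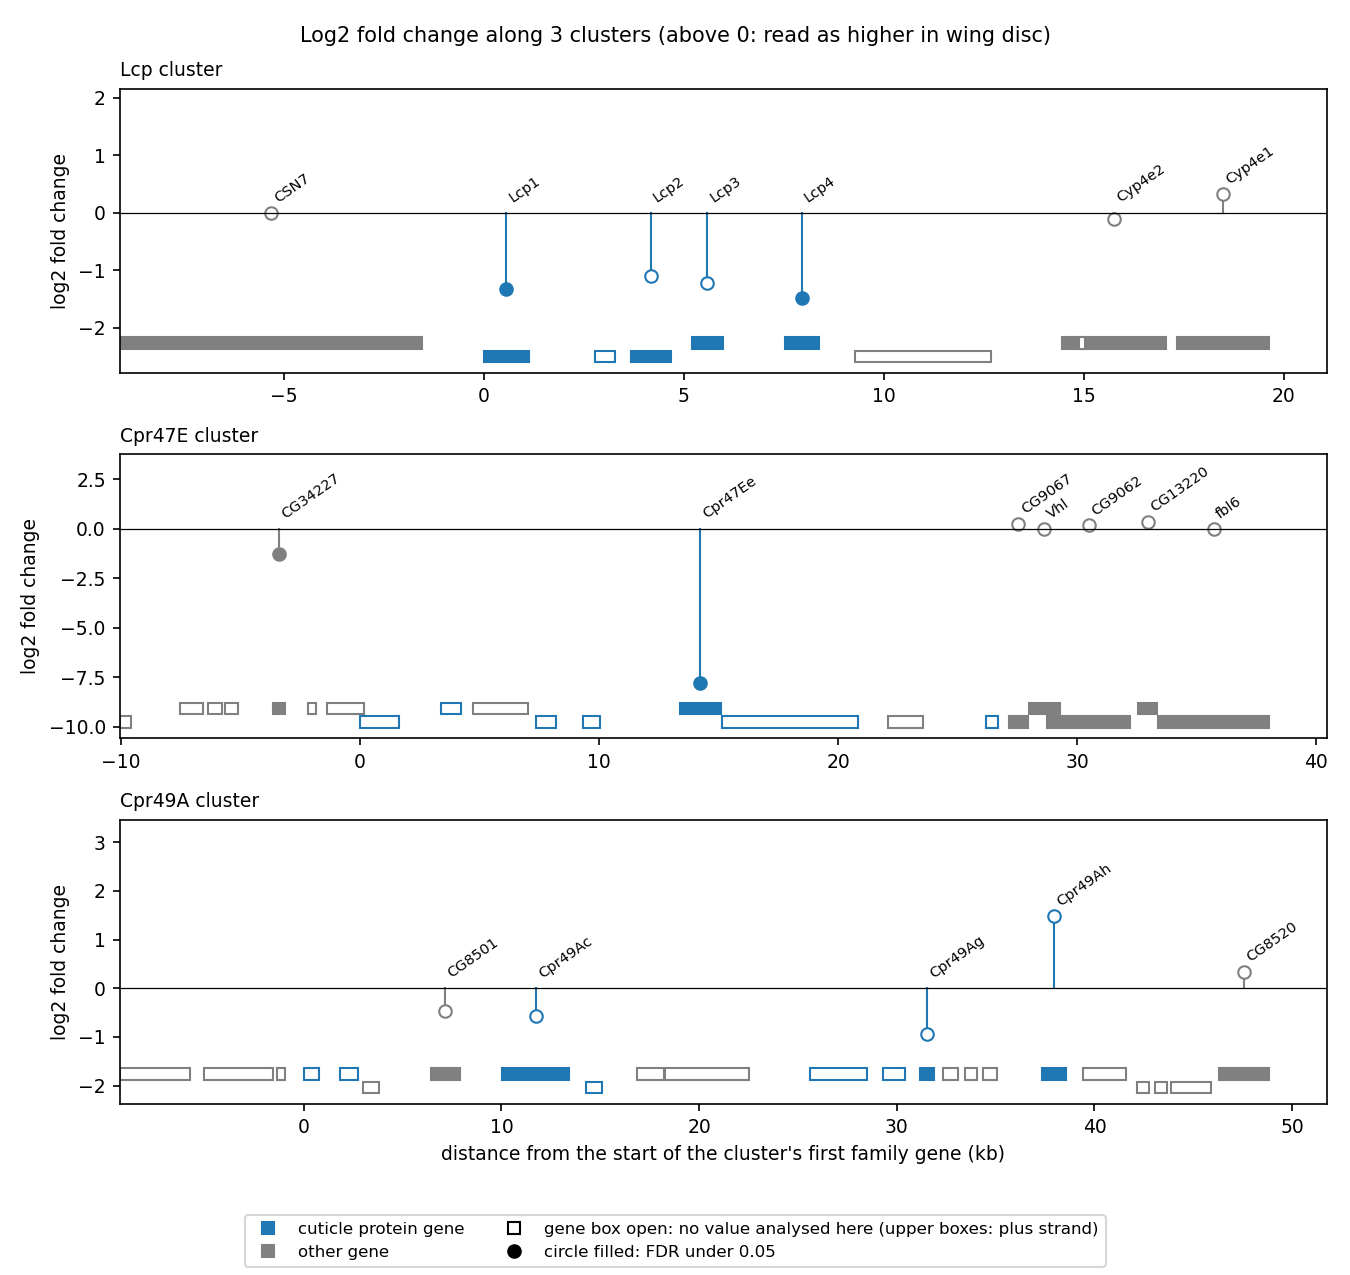
Deposited log2 fold change from the authors (vertical axes, above 0 read as higher in the wing disc) along the Lcp, Cpr47E and Cpr49A groups, by distance in kb from the first family gene; boxes mark genes, blue for cuticle protein genes and grey for others. The 4 Lcp genes lie between -1.49 and -1.10 while their neighbours lie near 0, Cpr47Ee stands alone at -7.77, and Cpr49Ag and Cpr49Ah lie on opposite sides of 0.

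The Cpr49A group on arm 2R held genes of both signs. It spans 12376626 to 12415170 (dm6) and contains 8 RR genes, of which Cpr49Ac, Cpr49Ag and Cpr49Ah had values. Cpr49Ah was on the wing side, at a log2 fold change of 1.48 (2.79-fold) with an approximate standard error of 0.44, an edgeR p-value of 0.000681 and FDR of 0.0504 in the authors' deposited table, just short of the threshold. Its implied levels were 12.2 CPM in the wing disc and 4.36 CPM in the haltere disc. Cpr49Ag, 5.44 kb away on the same strand with 3 other genes between, stood at -0.93 with an edgeR p-value of 0.00815 and FDR of 0.344 in the authors' deposited table. The implied levels of Cpr49Ag were 19.1 CPM in the wing disc and 36.5 CPM in the haltere disc.

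Neither gene passed the threshold. Their approximate 95% intervals, 0.63 to 2.34 for Cpr49Ah and -1.62 to -0.24 for Cpr49Ag, did not overlap. The pair was set side by side with its opposite signs known, so this is a description only. The difference between Cpr49Ah and Cpr49Ag was not tested. Cpr49Ac, the most expressed cuticle gene of the table at 7.79 log2 CPM, stood at -0.56 with an edgeR p-value of 0.157 and FDR of 1 in the authors' deposited table. Its interval ran from -1.34 to 0.22 and included 0.

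Of the other RR genes, 4 had an unadjusted p-value under 0.05 without passing the FDR. Cpr65Ec, on arm 3L, stood at -1.87 with an approximate standard error of 0.58, an edgeR p-value of 0.00137 and FDR of 0.0881 in the authors' deposited table. Cpr60D, on arm 2R, was at -1.35 with an edgeR FDR of 0.740 in the authors' deposited table. Cpr31A, on arm 2L, had the highest value of the family, 1.65, with an edgeR p-value of 0.00887 and FDR of 0.368 (authors' deposited table). Cpr67Fa2, on arm 3L, was at 1.49 with an edgeR FDR of 0.543 (authors' deposited table), and it lies 1.01 kb from a related copy, Cpr67Fa1, with which it may share reads. Cpr31A, Cpr67Fa2 and Cpr60D were all low, between 0.44 and 0.78 log2 CPM.

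The remaining 7 RR genes had p-values of 0.0616 or more and an edgeR FDR of 1. On the wing side were Cpr66D at 0.71, Cpr51A at 0.50, Cpr64Aa at 0.35, Cpr12A at 0.07 and Cpr78E at 0.03 in log2 fold change (authors' deposited table). Cpr67B at -0.74 and Cpr11A at -0.96 were on the haltere side in the authors' deposited table. Cpr11A was the least expressed cuticle gene, at 0.08 log2 CPM, and its interval ran from -2.58 to 0.66. The narrowest errors in this set belonged to Cpr64Aa and Cpr12A, whose intervals ran from -0.21 to 0.91 and from -0.54 to 0.68. For these well measured genes a change as large as that of Lcp4 lies outside the interval. Cpr51A and Cpr64Aa overlap a gene on the opposite strand, and whether the authors counted by strand is not given.

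**Figure D3:**
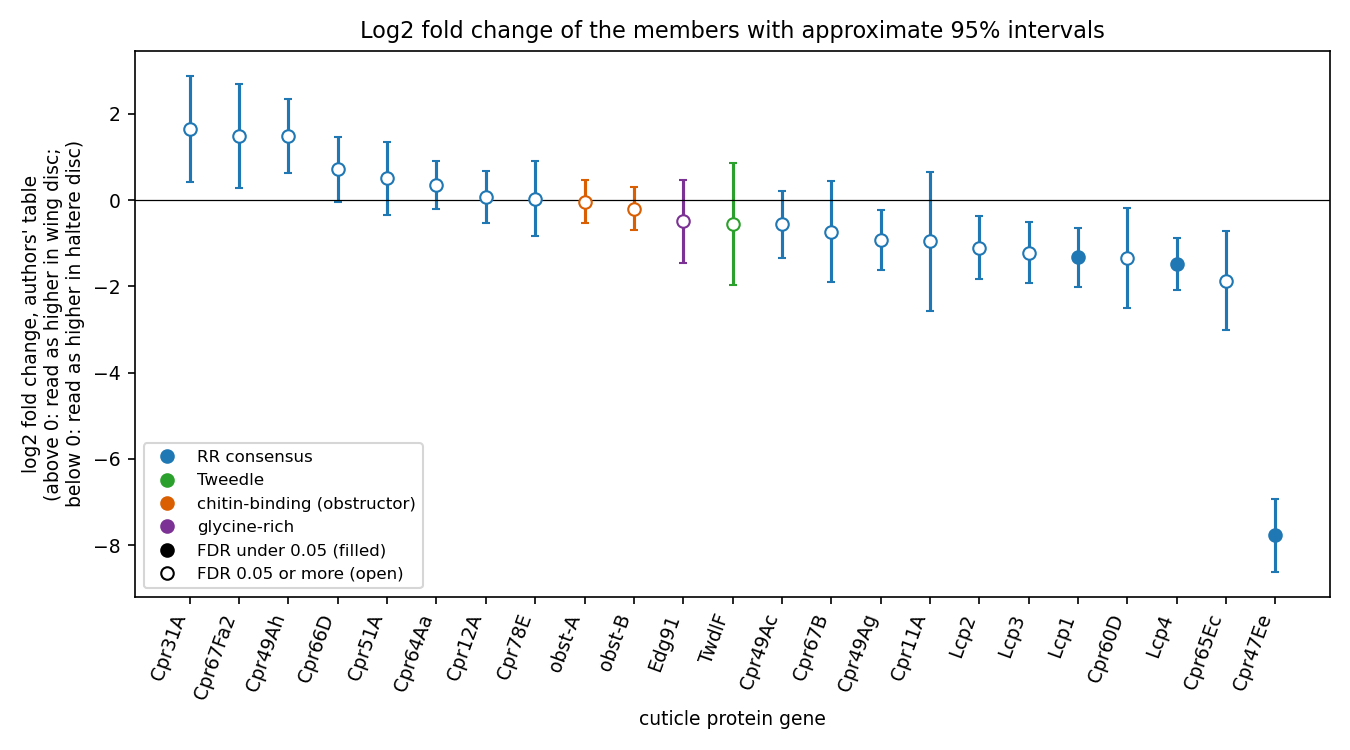
Log2 fold change of the 23 cuticle protein genes in the authors' deposited table (vertical axis, above 0 read as higher in the wing disc), ordered from highest to lowest, with bars for approximate 95% intervals derived from the authors' p-values; filled circles have an FDR under 0.05. The intervals of 11 genes exclude 0, of which Cpr47Ee, Lcp4 and Lcp1 are filled. The bar of Cpr47Ee does not bound its fold, because its implied wing level is only 0.192 CPM.

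Both obstructor genes lay near 0. For obst-A, whose protein helps to order chitin in the larval cuticle, the authors' deposited table gave a log2 fold change of -0.03 at 7.33 log2 CPM, with a p-value of 0.892 (edgeR). For obst-B it gave -0.20 at 5.62 log2 CPM, with a p-value of 0.445 (edgeR, the authors' deposited table). Their approximate 95% intervals, -0.52 to 0.46 and -0.70 to 0.31, bound a difference between the tissues to under 2-fold in either direction. The relatives outside the naming pattern, Gasp (obst-C) and Peritrophin-A (obst-D), stood at 0.07 and -0.06 in the authors' deposited table, with p-values of 0.758 and 0.919 (edgeR). The single Tweedle gene, TwdlF, was at -0.55 with a p-value of 0.441, and Edg91 at -0.50 with a p-value of 0.309 (edgeR, the authors' deposited table). Both were low, at 0.36 and 1.60 log2 CPM, and their intervals, -1.96 to 0.85 and -1.45 to 0.46, included 0.

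Levels between genes were compared after division of the mean CPM by exon length, taken from the Ensembl annotation. By this measure Cpr49Ac was first, with 104.4 CPM per kb over both tissues, followed by obst-A with 84.4 and Lcp4 with 55.1 CPM per kb. Next came obst-B and Cpr49Ag, with 42.9 and 42.8 CPM per kb, which are close enough that their order should not be read. Lcp1 had 31.1, Cpr12A 27.4, Lcp3 25.5, Cpr51A 21.8, Cpr64Aa 19.3, Lcp2 17.7, Cpr78E 17.3 and Cpr47Ee 15.3 CPM per kb, and the lowest was Cpr11A with 0.798. This order pools the tissues and need not hold in each. Split by the fold change, Cpr47Ee had an implied 0.139 CPM per kb in the wing disc and 30.4 in the haltere disc, and Lcp1 17.8 in the wing disc and 44.5 in the haltere disc. Summed over the 23 genes, the implied levels were 573 CPM in the wing disc and 807 CPM in the haltere disc, a ratio of 0.71. Without Cpr47Ee the sums were 573 and 765 CPM. Cpr49Ac and obst-A together made up 55.3% of the summed mean CPM, with 337 CPM in the wing disc and 426 CPM in the haltere disc. Most of that gap was in Cpr49Ac, with an implied 178 CPM in the wing disc and 263 CPM in the haltere disc. For obst-A the implied levels were 159 and 163 CPM. Cpr49Ac was not called, and its interval included 0, so the summed ratio leans partly on an uncalled gene. The 17 genes other than Cpr47Ee, Cpr49Ac and the 4 Lcp genes summed to 331 CPM in the wing disc and 342 CPM in the haltere disc.

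Of the 23 genes, 18 consist of 2 exon blocks when all transcripts are merged. The others are Cpr66D with 3, Cpr11A and obst-A with 4, and Cpr49Ac and obst-B with 6. Exon length ran from 463 bp for Cpr78E to 2117 bp for Cpr49Ac, with a median of 990 bp.

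Genes that make, modify and tan the cuticle were then examined as lists. Of 25 chitin genes with values, 0 were higher in the wing disc and 3 were higher in the haltere disc at an FDR under 0.05, namely Cht5, Idgf4 and Idgf6 (edgeR), beside 1.34% of all genes. The chitinase gene Cht5 stood at -1.73 in log2 fold change, FDR 7.41e-08, and Idgf4, which encodes a secreted chitinase-like protein, at -1.19 with an edgeR FDR of 0.00679 (authors' deposited table). Idgf6, listed under its older name CG5210, was at -1.33 with an edgeR FDR of 0.0177 (authors' deposited table). The related genes Idgf3 and Idgf2 were at -1.64 and -1.30 with FDR values of 0.312 and 0.503 (edgeR, the authors' deposited table). The chitin synthase gene kkv was at -0.18, the chitin-organising gene knk at 0.07, and the deacetylase genes serp and verm at -0.27 and -0.40, with p-values of 0.105 or more (edgeR, the authors' deposited table). The called chitin genes thus encode a chitinase and chitinase-like proteins, but not all such genes of the list moved. The chitinase genes Cht2, Cht6 and Cht7 stood at -0.01, -0.14 and -0.05, and Cht10, listed as Cht3, at -0.22 (authors' deposited table). Their p-values were 0.415 or more (edgeR). Idgf1 was at -0.30 with an edgeR p-value of 0.657 in the authors' deposited table. Within 0.5 of 0 on the log2 scale lay 19 of the 25 chitin genes (76.0%), beside 89.9% of all genes.

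In the apical matrix, tanning and hormone-timed lists, 0 genes passed the FDR, beside 1.34% of all genes, and at sizes of 10, 12 and 22 genes such counts are near that background. Of the 10 apical matrix genes with values, 3 had an unadjusted p-value under 0.05, beside 4.32% of all genes, and all 3 were positive (edgeR). These were nyo at 0.68, dy at 1.14 and m at 1.31 in the authors' deposited table, which encode membrane proteins with zona pellucida domains, and dy and m were low, at 0.93 and 0.50 log2 CPM. Of 12 tanning genes, 0 had a p-value under 0.05, with values from -0.78 for yellow-c to 0.20 for amd (edgeR, the authors' deposited table). Of 22 hormone-timed genes, 0 had a p-value under 0.05 (edgeR). Blimp-1, a repressor that times ecdysone responses, stood at -0.50, the nuclear receptor gene ftz-f1 at -0.20 and the receptor gene EcR at -0.07 in the authors' deposited table, with p-values of 0.211, 0.617 and 0.826 (edgeR). The hormone-timed list had a median log2 fold change of -0.14 and 15 of its 22 genes were negative, beside 3872 of all 7762 genes. Within 0.5 of 0 on the log2 scale lay 19 of the 22 (86.4%), beside 89.9% of all genes. A lean of this list to either side was not tested.

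**Figure D4:**
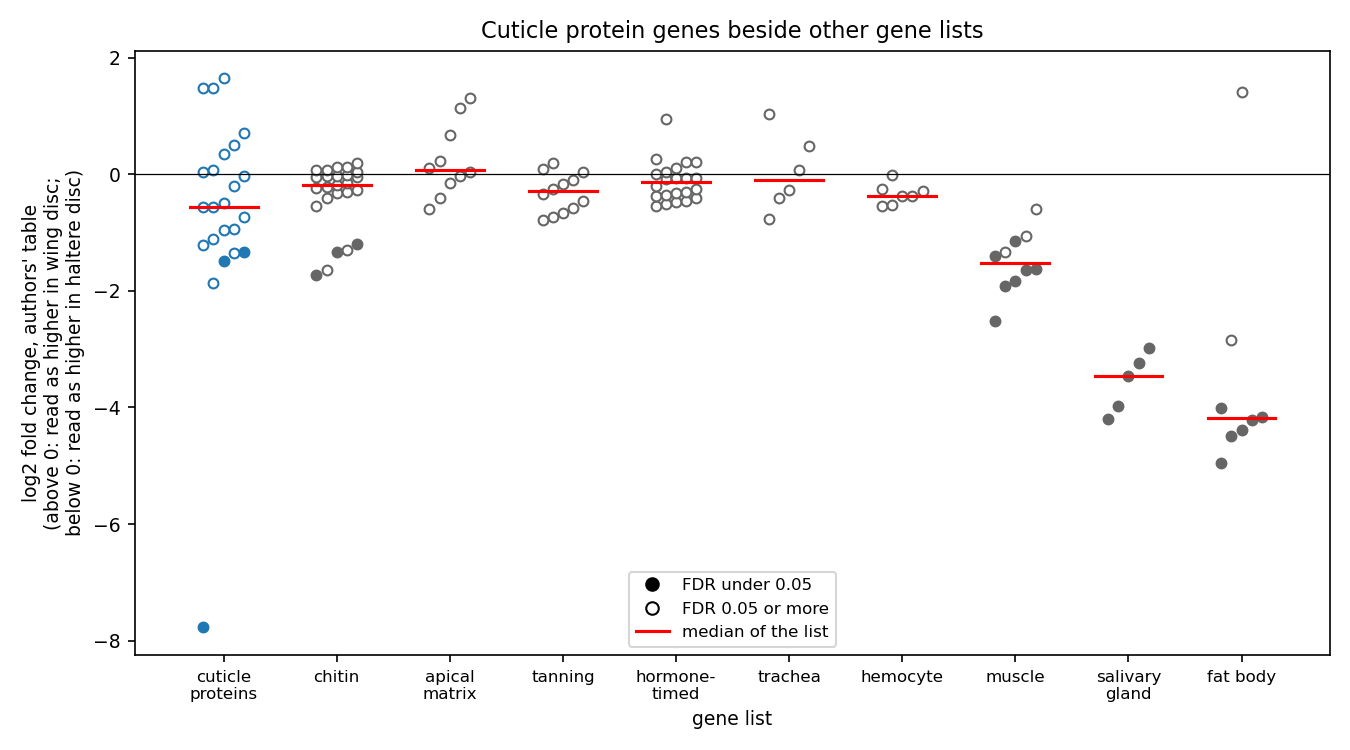
Deposited log2 fold change from the authors (vertical axis, above 0 read as higher in the wing disc) of the 23 cuticle protein genes (blue) and of 9 other gene lists (grey), with filled circles for an FDR under 0.05 and a red line at each list's median. The cuticle genes spread to both sides of 0, whereas the muscle, salivary gland and fat body markers lie below 0 except the fat body gene Apoltp at 1.41.

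Markers of larval fat body, salivary gland and muscle lay mostly on the haltere side in the same comparison. Over all genes 0.876% were higher in the haltere disc and 0.464% in the wing disc at an FDR under 0.05 (edgeR). At that FDR the haltere disc was higher in 6 of 8 fat body, 5 of 5 salivary gland and 7 of 10 muscle genes. At the same FDR, 0 genes with values in these lists were higher in the wing disc (edgeR). The fat body gene Apoltp was on the wing side, at 1.41 with an edgeR p-value of 0.0141 and FDR of 0.515 (authors' deposited table). The median log2 fold changes of these lists were -4.19, -3.46 and -1.52 in the authors' deposited table, with values from -4.95 to 1.41, from -4.19 to -2.97 and from -2.51 to -0.60. For 7 hemocyte genes the median was -0.37 and for 6 tracheal genes -0.10, the latter with values from -0.76 to 1.03. The tracheal genes Gasp, serp and verm are also in the chitin list, so those lists are not independent. None of the 13 hemocyte and tracheal genes passed the FDR (edgeR), beside 1.34% of all genes, and such a count is near that background. At an unadjusted p-value under 0.05 stood 0 hemocyte genes and 1 tracheal gene, trh, at 1.03 (edgeR, the authors' deposited table). Over all genes 4.32% had such a p-value (edgeR). The summed mean CPM over both tissues was 588 for the fat body list, 95.3 for the salivary gland list and 228 for the muscle list, against 690 for the cuticle genes. The part of such tissues in the values of Cpr47Ee, the Lcp genes and the Idgf genes was not tested.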

How the data were processed

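RNA of 3 wing disc and 3 haltere disc samples was sequenced with a strand-keeping kit. HISAT2, HTSeq and edgeR and the build dm6 are named, without versions, per the submitters' processing notes. The authors deposited 1 table of their own comparison: log2 fold changes and mean log2 CPM, with p-values and FDR (adjusted p-values), per the file headers. The edgeR test, its covariates and the filter on low counts are not given in the sources used here. Of 7767 rows, 5 are summary lines of the read counter and were left out of gene counts; CPM values are relative to a total that may include such reads. Benjamini-Hochberg values recomputed over all rows equalled the deposited FDR to within 6.24e-06. The number of unused columns with values of single samples was 0.

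Because the table holds no values per sample, no test was run; calls are the authors' FDR under 0.05. The members and lists were chosen with earlier results of these data known. All members may be named; other genes were named from the lists, for the direction, or as neighbours. Symbols were matched to RefSeq (Release 6 plus ISO1 MT, which is dm6) by symbol or unique synonym, which placed 7658 of 7762 genes (98.7%) and all 23 members. Exon lengths came from Ensembl release 115. Approximate standard errors are the size of the log2 fold change over the normal deviate of its two-sided p-value. Implied levels split the mean CPM by the fold change, assuming equal weight of both tissues; they carry no error of their own. The adjustment and the standard errors were checked on simulated data. No edgeR fit was part of that check, so how well the errors hold for edgeR p-values was not tested. Replicates were biological and independent, per the series' design text; whether shared replicate numbers pair the tissues is not stated. The depth is unknown. Python 3.11.15, pandas 2.3.3 and SciPy 1.17.1 were used.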

Additional observations from a re-analysis of the deposited data

How the results depend on the processing

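The calls were recounted from the same deposited p-values, so no alternative could move a fold change. An authors' FDR under 0.1 gave 6 cuticle genes, 1 higher in the wing disc and 5 higher in the haltere disc, against 3, 0 and 3 at 0.05, and added Cpr49Ah, Lcp3 and Cpr65Ec. An FDR under 0.01 and a Bonferroni adjustment each left 2, Cpr47Ee and Lcp4, so the call of Lcp1 was lost under both. The share of all genes passing at these other thresholds was not counted. Whether the change from 3 to 6 is particular to the family is therefore not known. A minimum log2 change of 1, a minimum mean of 1 log2 CPM with readjustment, removal of the summary lines and the recomputed values each gave 3. The median log2 fold change was -0.55 over the 23 genes, -0.50 with a minimum of 1 log2 CPM, -0.74 over RR genes and -0.52 without Cpr47Ee. No paired analysis was possible because the table holds no values per sample. For the same reason no library could be left out, and whether 1 library drives a call is not known. The approximate intervals were wide for low genes, with a median standard error of 0.62 for the 6 cuticle genes under 1 log2 CPM and 0.37 for the 17 others.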
